A study of Mus musculus with 8 samples.

Results

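Among the H2AK119ub peaks of newborn mouse epidermal progenitors, 534 lay at the end of a protein-coding gene and were called in both control and Eed cKO cells. Their widths in the 2 genotypes were similar within the limits given next. A member is a pair of peaks, 1 from each genotype's list, that overlapped each other by at least 1 bp and no other peak. Its Eed cKO width divided by its control width lay above 0.67 and below 1.5, and its control peak met a window of 2000 bp on either side of the start or end of a protein-coding gene. These 534 pairs took up 11.6% of the 4621 control peaks and 23.6% of the 2265 control peaks at gene ends. They covered 4.32 Mb in control, 14.9% of all control peak sequence. In Eed cKO they covered 4.21 Mb, 25.3% of that list's sequence. The members were chosen by the measured peak widths, so widths, edges and overlaps are given below as a description.

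The cells were basal progenitors of the interfollicular epidermis, sorted from back skin at postnatal day 0. One group carried the genotype given as Control and the other the genotype given as Eed-/-, called Eed cKO in the library names. The sort kept viable cells positive for EpCAM and Sca1 with high α6-integrin. Each group had 2 H2AK119ub libraries and 1 peak list of positions, with no score or height. Neither the Cre driver nor the pooling of animals nor the number of litters is given in the sources used here, and the labels do not say that the libraries came from separate animals. A single list stood for each genotype, so the spread between libraries could not be measured, no test between genotypes was possible, and read depth was unknown. Neither list held a peak at an end of Eed itself, and positions alone do not show its deletion. Of the genes that define basal keratinocytes, Krt5, Krt14 and Trp63 carried no peak at their ends, and other such markers are not given here. Peak lists do not measure expression. Of 75 listed keratinocyte and keratin genes, 17 met a control peak at an end.

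H2AK119ub is a single ubiquitin placed on histone H2A by Polycomb repressive complex 1 (PRC1), whose ligases are Ring1a and Ring1b. Polycomb repressive complex 2 (PRC2), which needs Eed, methylates lysine 27 of histone H3, and some forms of PRC1 are drawn to that methyl mark through CBX proteins. Other forms of PRC1 reach unmethylated CpG-rich DNA through KDM2B without it. Both routes are known at the promoters of silent developmental genes.

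Sequence was not used to choose the members, so the promoters they cover are shown first. RefSeq promoters of GRCm38.p6, the assembly also called mm10, span 250 bases before to 50 bases after a gene start, and 337 of them, from 286 genes, lay wholly inside both peaks of a member. The 250 bases before the start are printed 5′ to 3′ for 8 of these, with every CG dinucleotide in capitals. The first 3 have the highest, the median and the lowest CpG content among the members, measured as CpG observed over expected, the CpG count set against what the C and G content would give. The others belong to the widest member with such a promoter in 5 gene lists: homeobox, paired box to GATA, basic helix-loop-helix, growth factor and channel genes.
Camk2b (chr11:6065749-6065998, - strand): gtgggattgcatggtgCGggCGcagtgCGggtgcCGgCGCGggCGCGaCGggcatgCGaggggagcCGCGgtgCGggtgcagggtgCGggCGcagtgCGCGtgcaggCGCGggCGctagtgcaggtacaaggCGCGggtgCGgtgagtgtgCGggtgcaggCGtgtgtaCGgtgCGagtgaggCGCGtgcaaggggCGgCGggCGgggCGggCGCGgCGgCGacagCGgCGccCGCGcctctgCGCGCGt
Gm10710 (chr3:83129247-83129496, - strand): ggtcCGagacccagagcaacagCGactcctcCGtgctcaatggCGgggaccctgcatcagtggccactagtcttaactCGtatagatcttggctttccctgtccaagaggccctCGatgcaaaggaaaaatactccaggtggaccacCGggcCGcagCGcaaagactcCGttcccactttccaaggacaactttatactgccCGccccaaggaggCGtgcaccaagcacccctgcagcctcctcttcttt
Nxnl1 (chr8:71566650-71566899, - strand): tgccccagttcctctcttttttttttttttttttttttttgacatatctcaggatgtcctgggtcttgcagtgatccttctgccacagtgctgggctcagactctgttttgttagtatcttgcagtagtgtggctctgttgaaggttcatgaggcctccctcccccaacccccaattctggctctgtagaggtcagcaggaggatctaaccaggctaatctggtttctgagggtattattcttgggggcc
En1 (chr1:120602237-120602486, + strand): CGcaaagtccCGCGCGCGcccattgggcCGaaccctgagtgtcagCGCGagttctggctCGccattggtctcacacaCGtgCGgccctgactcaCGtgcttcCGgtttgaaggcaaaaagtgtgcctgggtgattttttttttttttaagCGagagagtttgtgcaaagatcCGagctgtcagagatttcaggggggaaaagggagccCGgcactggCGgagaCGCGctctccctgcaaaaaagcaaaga
Gata2 (chr6:88193641-88193890, + strand): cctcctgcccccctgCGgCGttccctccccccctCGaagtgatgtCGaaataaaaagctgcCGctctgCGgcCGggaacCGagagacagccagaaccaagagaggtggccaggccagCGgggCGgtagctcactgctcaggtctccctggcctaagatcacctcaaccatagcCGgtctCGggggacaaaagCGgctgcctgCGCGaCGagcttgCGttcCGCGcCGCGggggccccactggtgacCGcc
Sim1 (chr10:50895401-50895650, + strand): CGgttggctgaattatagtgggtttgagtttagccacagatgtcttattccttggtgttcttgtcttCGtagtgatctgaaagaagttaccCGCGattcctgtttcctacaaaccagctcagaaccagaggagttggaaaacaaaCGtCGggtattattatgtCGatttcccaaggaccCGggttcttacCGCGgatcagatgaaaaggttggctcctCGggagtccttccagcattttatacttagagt
Gdf7 (chr12:8301955-8302204, - strand): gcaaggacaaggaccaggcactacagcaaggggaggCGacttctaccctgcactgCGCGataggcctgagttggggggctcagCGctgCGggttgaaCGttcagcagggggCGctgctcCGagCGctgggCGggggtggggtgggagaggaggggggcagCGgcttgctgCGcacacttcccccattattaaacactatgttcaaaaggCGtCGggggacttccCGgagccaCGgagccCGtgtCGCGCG
Kcnj4 (chr15:79505242-79505491, - strand): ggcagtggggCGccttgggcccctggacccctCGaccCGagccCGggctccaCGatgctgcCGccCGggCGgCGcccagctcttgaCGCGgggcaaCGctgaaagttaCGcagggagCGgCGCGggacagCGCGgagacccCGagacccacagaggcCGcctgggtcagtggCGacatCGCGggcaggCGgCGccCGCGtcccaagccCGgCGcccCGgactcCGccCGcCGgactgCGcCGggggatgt

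Camk2b encodes a calcium-dependent kinase of neurons, and the stretch shown held 44 CG dinucleotides. Over all 300 bases its CpG observed over expected was 1.28 at a GC content of 77.3%. The promoter of Nxnl1, a thioredoxin-like gene of the retina, held 0 CG in the stretch shown and 1 over 300 bases, with a ratio of 0.053. Gm10710, in the middle of the members at 0.718, lay in the same pair as Dchs2, a large cadherin. The homeobox gene En1 (0.948) and the inward rectifier potassium channel gene Kcnj4 (0.948) had equal ratios, but Kcnj4 was richer in GC, at 76.0% against 57.0%. Gata2, a factor of blood progenitors, stood at 0.9, Sim1, a factor of hypothalamic neurons, at 0.821 and Gdf7, a BMP-type ligand, at 0.766. CG-dense promoters thus stood beside promoters almost free of CG within the same set of pairs.

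Across the 337 promoters inside both peaks, the median CpG observed over expected was 0.718 (middle range, quartile to quartile, 0.530 to 0.862), or 22 CG per 300 bases. All 21263 promoters of protein-coding genes had a median of 0.567 and 13 CG. Promoters outside all control and Eed cKO peaks had 0.548. Promoters inside control peaks at gene ends with no Eed cKO peak stood at 0.667, those of narrowed pairs at 0.766 and those of widened pairs at 0.701. A promoter with a ratio above 0.6 and GC above 50% occurred in 67.7% of the members' promoters, 68.4% of those of narrowed pairs, 56.2% of those under control peaks with no Eed cKO peak and 44.9% of all promoters. Promoters at members were thus CG-richer than promoters at large, and their median lay between those of narrowed pairs and of control peaks without a partner. Promoters of the other peak classes had to lie inside the control peak alone. On that criterion the members gave a median of 0.710 and a share of 66.8%. All promoters inside control peaks gave 0.692 and 60.1%, and those of control peaks with several partners had a median of 0.712. These differences were not tested, since promoters are not replicates. Promoters were listed for 17492 of the 21887 genes used.

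**Figure D1:**
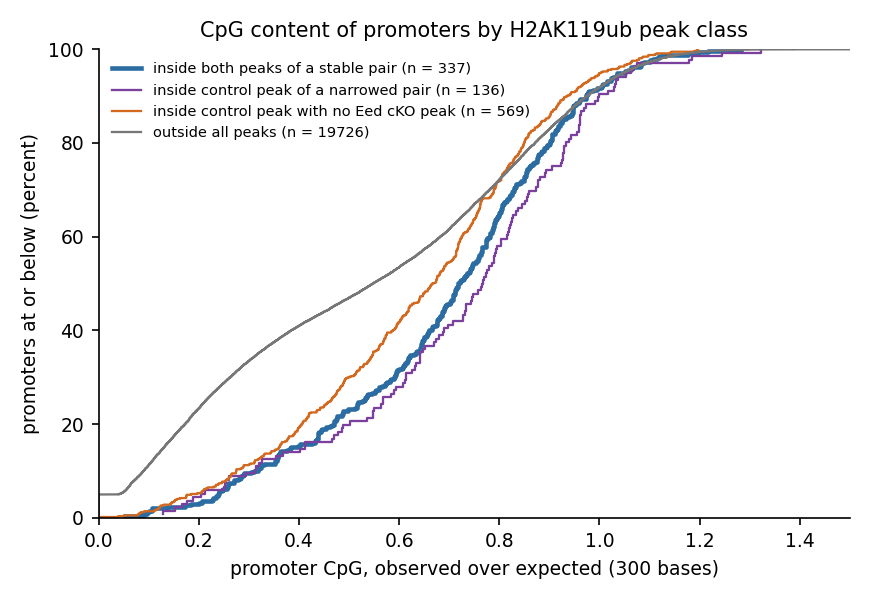
Cumulative share of promoters (percent, y axis) at or below a CpG observed over expected (x axis, over 300 bases), for promoters inside both peaks of a stable-width pair and 3 other classes. The curve of the stable pairs, with its median at 0.718, runs to the right of that of promoters outside all peaks, with its median at 0.548, over most of the range; the medians of narrowed pairs and of control peaks with no Eed cKO peak are 0.766 and 0.667.

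Short motifs were counted on both strands of the same 300 bases. GGGCGG, the core of the GC box bound by SP and KLF factors, occurred in 61.4% of the members' promoters and 46.2% of all promoters. CGCG, which can overlap other motifs, occurred in 73.6% against 49.2%. The TATA motif TATAAA occurred in 9.50% against 12.6%, and CCAAT in 30.6% against 38.2%. TAATTA, a homeodomain core, occurred in 7 of the 337 promoters (2.08%) against 4.53% of all. CACGTG, the E-box of MYC and other helix-loop-helix factors, occurred in 9.79% against 7.84%. The GC box, the CG repeat and the E-box were thus more frequent than in all promoters and the other 3 motifs less frequent, and these differences were not tested. Under control peaks with no Eed cKO peak the same shares were 63.8% for GGGCGG, 67.0% for CGCG and 9.67% for TATAAA. There CCAAT occurred in 34.3%, TAATTA in 3.69% and CACGTG in 7.91%. All promoters inside control peaks gave 62.2% for GGGCGG, 68.6% for CGCG and 8.25% for CACGTG. They gave 9.52% for TATAAA, 33.3% for CCAAT and 3.05% for TAATTA. Each motif thus differed from all promoters in the same direction there, so these directions were not particular to members. A match of letters is a description and not a bound site.

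Members had a median control width of 6.64 kb and a median Eed cKO width of 6.61 kb. Where 2 widths are given together below, control comes first. Control widths ran from 0.569 to 55.8 kb and Eed cKO widths from 0.652 to 56.7 kb, with 126 control peaks of 10 kb or more and 70 under 3 kb. All control peaks at gene ends had a median of 5.44 kb, and stable pairs away from gene ends had medians of 4.49 and 4.44 kb. The Eed cKO peak was the wider in 274 members and the narrower in 260, and 200 members (37.5%) had a width ratio between 0.9 and 1.1. Wide members had lower ratios: with members split into 4 classes of near-equal number by control width, the median was 1.09 in the narrowest class (0.569 to 4.37 kb) and 0.908 in the widest (9.33 to 55.8 kb). The Eed cKO peak was the narrower in 33.6% of the narrowest class and in 70.1% of the widest. The ratio shares the control width with these classes, so this order is a description.

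**Figure D2:**
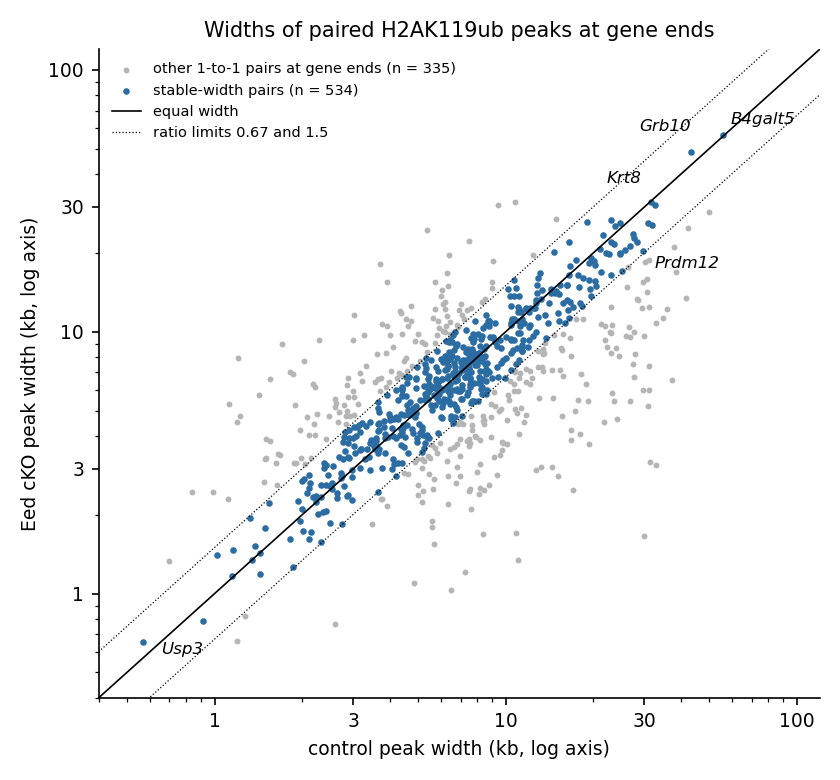
Control width (kb, x axis, log) against Eed cKO width (kb, y axis, log) of all 1-to-1 pairs at gene ends, with the 534 stable-width pairs in blue, the narrowed and widened pairs in grey, the line of equal width and the ratio limits 0.67 and 1.5. The blue points run from Usp3 (0.569 and 0.652 kb) to B4galt5 (55.8 and 56.7 kb) and, above 9.33 kb, lie more often below than above the line of equal width.

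Similar width did not mean identical position. The median shared length over joint length, the bases in both peaks as a share of the bases in either, was 79.7% (quartiles 70.4 and 88.8%). A peak edge moved by a median of 580 bp between the lists, and both edges lay within 500 bp in 133 members. At least 1 edge moved by more than 2000 bp in 127 members. The Eed cKO peak lay inside the control peak in 112 members and the control peak inside the Eed cKO peak in 125. In the other 297 (55.6%) the pair was staggered, with 1 edge moved outward and the other inward. Shared over joint length passed 50% in 505 members, 80% in 263 and 95% in 54.

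The closest match was the pair at Fosl1, a subunit of the AP-1 factor, and Ccdc85b. It was 3.57 kb for control against 3.56 kb for Eed cKO, with 99.7% shared and edges that moved by -6 bp each, where positive is outward. The pair at Slc38a3, an amino acid transporter gene, measured 6.81 and 6.78 kb and shared 99.6%. Pairs at Mmp25 and Bicdl2 (7.26 and 7.21 kb), at 5031439G07Rik (2.53 and 2.51 kb) and at Camk2n1 (3.30 and 3.28 kb) shared 99.4, 99.4 and 99.3%. These 5 had no edge that moved by more than 43 bp. The other extreme, chosen after its values were seen, was the pair at Hid1, 4.91 kb for control against 6.60 kb for Eed cKO. It shared 1358 bp, or 13.4%, with the Eed cKO peak mostly to one side of the control peak. At Capn13 the peaks of 3.16 and 3.55 kb shared 17.5%, and at Asb8 and Ccdc184 those of 6.54 and 4.63 kb shared 18.2%. At these 3 genes the width ratio hid a displaced peak.

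Just inside the lower limit lay the pairs at Vwc2 (4.19 and 2.81 kb) and Dgat2 (3.64 and 2.44 kb), both at a ratio of 0.67. The pair at Gsc2 and Ess2 (9.96 and 6.68 kb) followed at 0.671. Just outside it lay Lhx1 with Aatf, at 26.4 and 17.6 kb and a ratio of 0.667, and Igfbp3, at 14.7 and 9.75 kb and 0.665. Just inside the upper limit lay Ctbp2 (5.34 and 7.94 kb, ratio 1.49) and Gipc3 with Hmg20b (6.23 and 9.25 kb, ratio 1.485). Just outside it lay Plxna4 (6.63 and 9.96 kb, ratio 1.502), Irx3 (6.45 and 9.79 kb, ratio 1.52) and Snai3 (6.87 and 10.5 kb, ratio 1.52). Pairs on either side of each limit thus had nearly equal ratios.

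The widest member lay on B4galt5, which encodes a galactosyltransferase that makes lactosylceramide, at chr2:167292761-167348576. It measured 55.8 kb for control against 56.7 kb for Eed cKO, and its edges moved by 905 and -63 bp. The control peak covered 98.8% of the gene span of 50.7 kb and the Eed cKO peak 98.7%. The reach upstream of the start was -0.602 and -0.665 kb, where a negative reach means that the peak began past the start, and the downstream reach was 56.4 and 57.3 kb. The peaks thus left out the start itself and ran over the gene body and past the gene's far end. Grb10, an imprinted gene for an adaptor that restrains insulin signalling, had 43.3 and 48.6 kb at chr11:12008221-12051509. Its downstream reach was 29.2 kb in both lists, while the upstream reach was 14.1 kb for control against 19.3 kb for Eed cKO. Cobl, an actin nucleator gene on the same stretch of chromosome 11, carried peaks of 31.5 and 31.4 kb at its far end, with 98.1% shared. None of these 3 genes is a member of the transcription factor lists.

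The pair over Krt8, a simple-epithelium keratin also made by Merkel cells, and its neighbour Krt78 measured 32.5 and 30.4 kb at chr15:101988246-102020723. It covered the whole span of Krt8 in both lists. The other wide members were developmental factors: En1 (31.9 and 25.6 kb), Uncx (31 and 26.1 kb), Prdm12 (29.6 and 20.4 kb), Sim1 (28.2 and 22.0 kb), Nkx2-1 (27.5 and 22.9 kb) and Tbx2 with Bcas3 (27.4 and 23.6 kb). All 6 were narrower in Eed cKO, with ratios from 0.690 to 0.860. The narrowest members lay at Usp3 (0.569 and 0.652 kb), a ubiquitin protease gene, at Gm11634 (0.915 and 0.786 kb) and at Clic4 (1.02 and 1.402 kb). At Usp3 the downstream reach was -1.43 and -1.398 kb, so both peaks lay upstream of the gene and clear of its start.

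Genes at the members numbered 694, or 3.17% of the 21887 protein-coding genes and 27.2% of the 2550 genes whose ends met a control peak, called control-marked. Of the 694, 672 also met an Eed cKO peak at an end, which is part of how they were chosen, against 49% of control-marked genes and 7.4% of all genes. A single gene lay at 389 members, 2 genes at 111, 3 at 30 and 4 or more at 4. These last included the pair at Slc17a7, the vesicular glutamate transporter gene, with Gfy, Kash5 and Pth2 (12.7 and 13.2 kb) and the pair at Asic4, Chpf, Obsl1 and Tmem198 (14.3 and 14 kb). Conversely 23 genes met more than 1 member. The median gene span was 15.8 kb at members, 26.5 kb at control peaks with no Eed cKO peak and 17.2 kb for all protein-coding genes.

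Strand was listed for 527 of the 694 genes. A gene start is here the outer bound of the RefSeq gene span on its 5′ side, which can differ from the start of a listed promoter. Of the 427 members with such a gene, 376 (88.1%) met a gene start and 51 (11.9%) a gene end alone. The share at a start was 86.7% over all control peaks at gene ends, 91.4% for narrowed pairs and 79.2% for widened pairs, so the members stood close to control peaks at large. Each start was counted at every member it met, so some, such as those of Cbx8 and Kcnn1, count more than once. Of the 432 starts counted so, 288 lay inside both peaks and 94 near but outside both. Another 24 lay inside the control peak alone and 26 inside the Eed cKO peak alone. Some starts outside both, such as those of Hpca and Ltbp4, belong to genes with a listed promoter wholly inside both peaks. The start so defined thus fell in both peaks or in neither in most cases.

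Around those 288 starts the peaks reached further into the gene than away from it. The median reach downstream was 4.42 kb for control against 4.21 kb for Eed cKO. The median reach upstream was 2.79 kb for control against 2.76 kb for Eed cKO. Downstream reach exceeded upstream reach at 216 starts (75%) in control and at 207 (71.9%) in Eed cKO. The upstream edge moved by a median of 585 bp and the downstream edge by 602 bp, and the signed medians, positive outward, were 13 and -63.5 bp. The whole gene span lay inside both peaks at 66 starts.

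**Figure D3:**
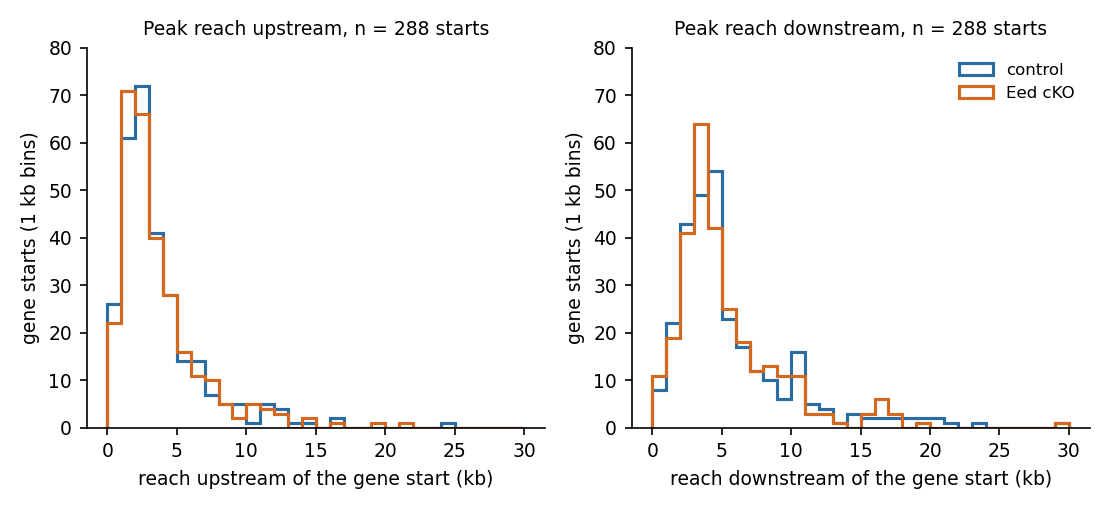
Number of gene starts (y axis, 1 kb bins) by the reach of the peak upstream (left) and downstream (right) of the start (x axis, kb), in control and Eed cKO, for the 288 starts inside both peaks of a stable-width pair. Control and Eed cKO histograms lie close together on both sides, and the downstream reach, with medians of 4.42 and 4.21 kb, is longer than the upstream reach, with medians of 2.79 and 2.76 kb.

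Homeobox genes outside the Hox clusters encode factors that lay out body regions and neuron types. They formed the largest group of transcription factors at members, with 34 of 149 genes (22.8%, against 3.17% of all genes) at 33 pairs. As a share of control-marked genes this was 28.8%, near the background of 27.2%. The share of 22.8% was 11.4% with stricter width ratio limits and 14.8% with gene starts alone. Another 36 of the 118 control-marked homeobox genes lay at narrowed pairs, 19 at control peaks with several partners and 31 at control peaks with no Eed cKO peak. A gene with several peaks counts in each class. The 33 pairs had medians of 17.8 kb for control against 13.7 kb for Eed cKO, and 25 of them were narrower in Eed cKO. Their median ratio of 0.844 lay under that of the widest class of all members, 0.908. Homeobox members were thus wide and mostly below a ratio of 1.

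Around En1, which patterns the midbrain and the ventral limb ectoderm, the peak reached from 11.8 kb upstream to 20.1 kb downstream in control. In Eed cKO it reached from 10.4 to 15.2 kb, and both peaks covered the whole gene. Uncx, a factor of vertebral patterning, ran from 11.3 to 19.7 kb in control and from 8.67 to 17.5 kb in Eed cKO. Nkx2-1, the thyroid and lung factor, ran from 7.51 to 20.01 kb and from 5.11 to 17.8 kb. At these 3 genes both edges moved inward. Gsx2 and Mnx1, factors of forebrain and motor neurons, likewise had narrower Eed cKO peaks, with 26.7 and 21.3 kb and with 25.7 and 20.5 kb. Cdx2, the gut factor, had 25.0 and 17.1 kb, near the lower limit. Msx1, a factor of limb, tooth and hair, went the other way, with 23.7 kb for control against 25.4 kb for Eed cKO and 93.4% shared. Hmx1 had 19.1 and 26.3 kb and Irx5 4.56 and 6.74 kb, so wider Eed cKO peaks were also found in the group.

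**Figure D4:**
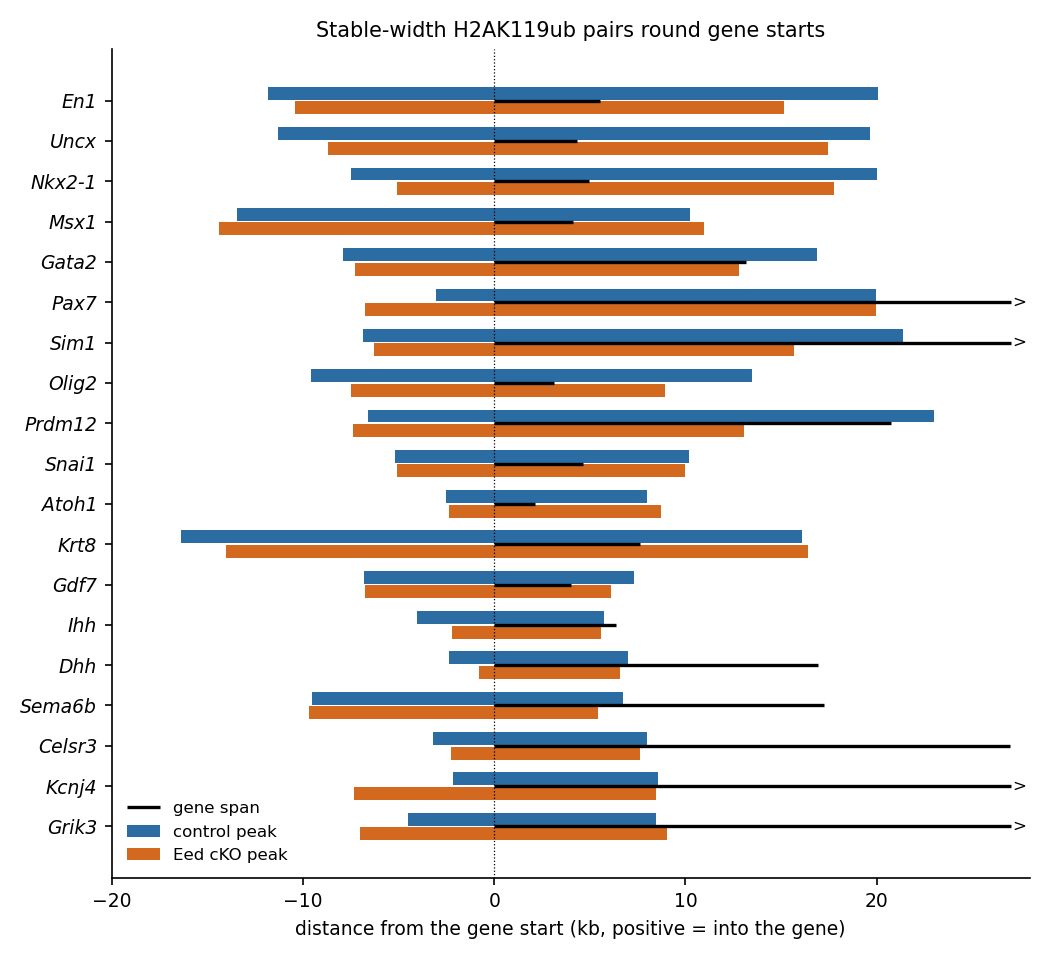
Control (blue) and Eed cKO (orange) peaks of 19 stable-width pairs, drawn by distance from the gene start (kb, x axis, positive into the gene), with the gene span in black and an arrowhead where it runs past the axis. The start is the outer bound of the gene span, which at Kcnj4 is not the start of the promoter printed above. At En1, Uncx and Nkx2-1 both edges lie further in for Eed cKO, at Prdm12 the downstream edge alone (23.02 and 13.04 kb), and at Kcnj4 and Grik3 the upstream edge lies further out (2.14 and 7.32 kb, and 4.503 and 7.01 kb).

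Hox genes, which pattern the body axis, gave 0 of 41 members. For separate draws, 0 counts of 41 would allow a share of up to 7.32%, but clustered genes that share peaks are not separate draws. Of the 34 control-marked Hox genes, counted with Evx1 and Evx2, 29 lay at control peaks with several Eed cKO partners, 2 at widened pairs and 5 at control peaks with none. The rule for members leaves out peaks with several partners, so most Hox genes could not enter. Genes of the GATA, T-box, forkhead, paired box and SRY box families gave 9 of 95, or 14.1% of their 64 control-marked genes. Of these, Gata2 had 24.8 and 20.1 kb, Foxf1 with Mthfsd 24.7 and 26.0 kb and Tbx1 23.6 and 21.6 kb. Pax7, a factor of muscle satellite cells, had 23.05 and 26.7 kb, and its peak reached 19.99 and 19.98 kb into the gene while the upstream reach was 3.06 and 6.74 kb. The narrow members of this list included Foxo6 (3.95 and 3.96 kb), Foxo3 (2.97 and 2.29 kb) and Sox21 (2.77 and 3.80 kb). Sox21 also had a wider pair that was narrowed and not a member (9.57 and 3.37 kb). The list therefore held 2 kinds of pair, wide domains at lineage factors and narrow peaks.

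Basic helix-loop-helix genes, which specify neurons, muscle and other lineages, gave 15 of 73, or 31.9% of 47 control-marked genes. Sim1 had 28.2 and 22.0 kb, and Olig2, which specifies oligodendrocytes and motor neurons, had 23.1 and 16.4 kb. Bhlhe41, a circadian repressor, had 11.1 and 13.7 kb. Zinc finger and nuclear receptor factors gave 12 of 130, or 19.7% of 61. Prdm12, a factor of pain-sensing neurons, had a downstream reach of 23.02 kb for control against 13.04 kb for Eed cKO, while its upstream edge moved outward by 800 bp. Snai1, the repressor of E-cadherin, had 15.3 and 15.1 kb with 98.2% shared, and Nr5a1, the steroidogenic factor, had 10.5 and 10.6 kb with 99.0% shared. Nr2f6 had 11.0 kb in both lists. Within this list the matched pairs were at Snai1, Nr5a1 and Nr6a1 (2.75 and 2.81 kb, 97.6% shared), and the displaced one was Sall4 (2.42 and 2.07 kb, 52.1%). Sall4 also had a wider narrowed pair that was not a member (12.4 and 6.66 kb).

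Together the 5 transcription factor lists supplied 70 of the 694 genes (10.1%), against 12.7% of control-marked genes. They lay at 69 members, of which 43 were in the widest class by control width and 8 in the narrowest. Of their control-marked genes 21.6% lay at a stable pair, 23.8% at a narrowed pair and 31.8% at a control peak with no Eed cKO peak. All control-marked genes gave 27.2, 9.41 and 52.8% for the same classes. At control peaks with several partners, which the rule leaves out, lay 25.9% of the factor genes against 8.78% of all. Transcription factor genes thus made up a somewhat smaller part of members than of control-marked genes. A larger share of them lay at narrowed pairs and at peaks with several partners. These differences were not tested.

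Growth factor genes of the FGF, BMP, TGF-beta and hedgehog pathways gave 10 of 82, or 33.3% of 30 control-marked genes. Fgf8, an organiser ligand of limb and brain, shared its pair with Npm3 and Oga, at 16.5 kb in both lists and 95.3% shared. Gdf7 had 14.1 and 12.9 kb, and Inhbb, an activin subunit gene, had 9.66 and 7.62 kb. The hedgehog ligand genes Ihh (9.81 and 7.81 kb) and Dhh (9.33 and 7.37 kb) differed mainly at the upstream edge. At Ihh the upstream reach was 4.05 and 2.23 kb and at Dhh 2.35 and 0.807 kb, while the downstream reach was 5.76 and 5.58 kb and 6.98 and 6.56 kb. Of the 10 pairs 8 were narrower in Eed cKO. Their median control width of 9.49 kb fell in the widest class, where 70.1% of all members were narrower in Eed cKO. Smad6, an inhibitor of BMP signalling, had 7.25 and 6.74 kb.

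WNT genes gave 5 of 51, or 20.8% of 24. The ligand genes were Wnt9a (6.42 and 8.37 kb) and Wnt5b (6.03 and 6.60 kb), the receptor genes Fzd5 (3.15 and 3.03 kb) and Fzd4 (2.54 and 2.64 kb), and Notum, a secreted WNT inhibitor, had 10.4 and 12.6 kb. The Wnt5b pair shared 25.7%: the control peak held the gene start, with 2.16 kb upstream of it, while the upstream reach of the Eed cKO peak was -1.285 kb. Notch and axon guidance genes gave 10 of 85, or 33.3% of 30. The Notch ligand gene Dll4 had 12.8 and 15.1 kb, the semaphorin genes Sema6b 16.3 and 15.1 kb and Sema7a 12.7 and 12.9 kb, and the netrin gene Ntn3 11.5 and 10.8 kb. The ephrin receptor genes Epha8 (11.3 and 11.2 kb) and Ephb2 (2.37 and 3.03 kb) both lay on chromosome 4.

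Channel genes gave 21 of 176, or 34.4% of 61 control-marked genes, at 25 pairs. Of these, 7 were narrower in Eed cKO, against 25 of the 33 homeobox pairs, a difference that was not tested, and the median ratio was 1.12, with medians of 5.81 kb for control against 6.34 kb for Eed cKO. The widest were at Scn8a, a neuronal sodium channel gene, with Fignl2 (20.1 and 18.7 kb) and at Kcnq1 (15.2 and 11.8 kb). Kcnj4 had 10.7 and 15.8 kb, and the pacemaker channel gene Hcn4 had 8.77 and 11.0 kb. At Kcnj4 the downstream reach was 8.54 and 8.45 kb and the upstream reach 2.14 and 7.32 kb. These reaches count from the outer bound of the gene span, chr15:79512511, and not from the start of the promoter printed above. At Hcn4 the downstream reach was 4.46 and 4.44 kb and the upstream reach 4.32 and 6.51 kb. The downstream edges thus held and the upstream edges moved outward at both. Neurotransmitter and neuropeptide receptor genes gave 12 of 126, or 35.3% of 34, with a median ratio of 1.09 and 3 of 13 pairs narrower in Eed cKO. Grin2c, an NMDA receptor subunit gene, had 14.7 and 20.1 kb, Grik3, a kainate receptor gene, 12.95 and 16.0 kb, and Grm4, a metabotropic receptor gene, 11.3 and 11.9 kb. The median control widths of the channel pairs and of the receptor pairs (6.64 kb) both fell in the second narrowest class (4.39 to 6.64 kb). There the median ratio over all members was 1.063, and 39.1% of members were narrower in Eed cKO.

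Cadherin and protocadherin genes gave 8 of 110, or 50.0% of 16 control-marked genes. Celsr3 had 11.2 and 9.89 kb, Pcdh8 6.38 and 5.46 kb and Celsr2 4.67 and 6.74 kb, and Cdh22 had a member at each end (7.82 and 11.0 kb, and 4.60 and 5.24 kb). Matrix genes gave 8 of 106, or 33.3% of 24. Bcan, a brain proteoglycan gene, had 13.2 and 13.4 kb, and Adamtsl5 had 2 members (13.2 and 16.7 kb, and 12.1 and 12.3 kb). Solute carrier genes gave 15 of 389, or 25.0% of 60. Slc32a1, the vesicular GABA transporter gene, had 12.1 and 10.6 kb and lay wholly inside both peaks.

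**Figure D5:**
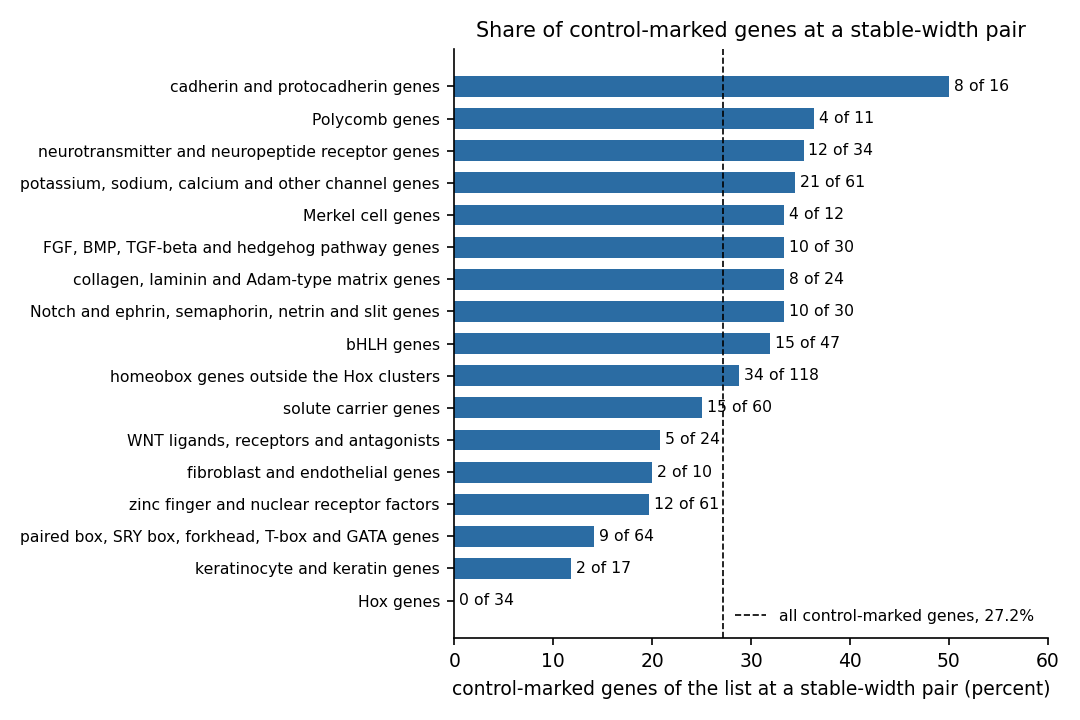
Share of the control-marked genes of each list that lay at a stable-width pair (percent, x axis), for lists with at least 10 control-marked genes, with counts beside the bars and the share over all control-marked genes, 27.2%, as a dashed line. Cadherin genes (8 of 16) stand highest and Hox genes (0 of 34) lowest; genes can belong to several lists and share peaks.

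Polycomb genes gave 4 of 49, or 36.4% of 11 control-marked genes. Cbx8, which encodes a CBX subunit of PRC1, met 2 members, of 14.8 and 14.3 kb and of 6.27 and 7.204 kb. Epop, a PRC2 cofactor gene, had 9.53 and 9.30 kb, and the pair at L3mbtl2 and Chadl had 8.51 and 7.07 kb. Merkel cell genes gave 4 of 20, or 33.3% of 12: Krt8, Insm1 (20.2 and 18.01 kb), Atoh1 (10.5 and 11.1 kb) and Tubb3 with Mc1r (7.31 and 7.78 kb). Around Atoh1 the upstream reach was 2.50 and 2.35 kb and the downstream reach 8.00 and 8.72 kb. Keratinocyte and keratin genes gave 2 of 75, both at the Krt8 pair, or 11.8% of 17 control-marked genes. Of these 17, 11 lay at control peaks with no Eed cKO peak, 3 at widened pairs and 1 at a control peak with several partners.

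Of lists for other cells, fibroblast and endothelial genes gave 2 of 24, or 2 of 10 control-marked genes: En1 and Twist2 (7.06 and 6.26 kb). Leukocyte genes gave 0 of 21, which allows a share of up to 14.3%, and melanocyte genes 0 of 11, which allows up to 27.3%. Cell cycle inhibitor genes gave 0 of 11 (up to 27.3%) and olfactory receptor genes 0 of 1106 (up to 0.271%). Only a control-marked gene can lie at a member, and these lists held few. Control-marked were 1 leukocyte, 3 melanocyte, 5 cell cycle inhibitor and 2 olfactory receptor genes. Against the background of 27.2% of control-marked genes, these zeros therefore say little about stable pairs. Ribosomal protein genes gave 2 of 81, or 2 of 3 control-marked genes. Of the 2 at members, Rps15 shared its pair with Apc2 (10.9 and 14.7 kb). In all, 168 of the 694 genes (24.2%) belonged to any of the 22 lists. The lists do not hold every gene of a role, so this count and the zeros above cover only the genes listed. Mc1r, the melanocortin receptor gene of pigment cells, lay at a member but is not in the melanocyte list, and Elane and Prtn3, neutrophil protease genes, lay at members but are not in the leukocyte list. These 3 were chosen after their values were seen.

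Some members lay near each other. Another member lay within 100 kb of 115 members (21.5%), in 48 runs, of which 14 held 3 or more; the same share was not computed for other control peaks. The run with the most members had 5 in 125 kb of chromosome 11, at Grin2c, Tmem104, Fdxr, Fads6, Ush1g and Hid1. Both lists had 5 peaks there. The ligand genes Fgf3, Fgf4 and Fgf15 lay in a row on chromosome 7 (chr7:144831469-144900568), each with its own member. Their widths were 11.4 and 8.78 kb at Fgf3, 7.55 and 6.68 kb at Fgf4 and 6.04 kb in both lists at Fgf15. Neighbouring ligand genes thus held separate peaks in both genotypes, which the rule requires of separate members. The span held 4 control peaks and 3 Eed cKO peaks. On chromosome 3, Nes, Bcan and Hapln2 formed another run. The nearest other control peak lay a median of 51.6 kb from a member and 50.5 kb from any control peak at a gene end, so the 2 medians were close.

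By chromosome, the share of control peaks at gene ends that were members reached 34.1% on chromosome 8 (45 of 132), against 23.6% in all. Chromosome 17 had 30.4% (24 of 79), chromosome 2 had 29.1% (59 of 203) and chromosome 13 had 15.3% (11 of 72). The X chromosome had 0 of 19, and 0 counts of 19 would allow a share of up to 15.8% if peaks were separate draws.

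MicroRNA genes were also found under members: 8 of 1005 RefSeq hairpins touched a member's control peak, against 47 that touched any control peak. Mir132 and Mir212, neuronal microRNAs made from a joint transcript, lay in the control peak at Hic1, Ovca2 and Smg6 (11.0 kb, chr11:75163924-75174939). In Eed cKO this peak was 9.86 kb, its upper edge moved by -1982 bp, and both hairpins fell outside it. Their mature 3p strands are shown because they carry the same seed, bases 2 to 8 in capitals, RefSeq sequences on the + strand at chr11:75173723-75173744 and chr11:75173443-75173464.
mmu-miR-132-3p: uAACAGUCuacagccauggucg
mmu-miR-212-3p: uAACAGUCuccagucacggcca
The other hairpins were Mir135b at Lemd1 (16.2 and 13.2 kb), Mir7235 at Tbkbp1 (19.7 and 19.1 kb), Mir6973b at Gfra4, Mir7067, Mir1199 at Misp3 and Mir1900 at Icam1, Icam4 and Icam5. All 6 lay wholly inside the Eed cKO peak. A member of stable width could therefore still differ in which small genes it covered.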

How the data were processed

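The deposited files were 1 list of H2AK119ub peaks for control and 1 for Eed cKO, each with chromosome, start and end in mm10 per the file headers. Per the submitters' processing notes, reads were handled with tools that included SAMtools 1.9 and Bowtie2 2.3.3.1. How peaks were called, at which threshold, with or without inputs, and how the 2 libraries of a genotype were joined is not given in the sources used here. Ring1a/b 2KO and input libraries were not analysed here.

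Starts were moved by 1 bp, so that positions count from 1. Genes, strands, promoters and microRNAs came from RefSeq tables of GRCm38.p6, with 21887 protein-coding genes. Strand was taken from the promoter table, which held 17492 of them. Pairs, overlaps and gene ends were computed with Python 3.11.15, numpy 2.4.6 and pandas 2.3.3, and checked on simulated peaks.

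The members and the 22 gene lists were chosen with earlier results of these data known. Named pairs were the 10 widest, the 3 narrowest, the 5 with the highest shared over joint length, 3 on each side of each limit, and up to 4 of the widest per list. Pairs on chromosome 18 are not named, and others were chosen after their values were seen. Some members are not reported here. No test was run: regions and genes are not replicates.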

Additional observations from a re-analysis of the deposited data

How the results depend on the processing

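Across 9 alternatives, 78 of 89 recomputed values stayed within the 95% binomial interval of the main median or share, or within 1.5 times the main count, and 11 moved. The interval covers counting error only. Autosomes alone gave the same 534 pairs, since no member lay on the X chromosome, so that alternative could hardly move a value. The allowance of 1.5 times also counted 361 pairs against 534 as unmoved. With the stricter ratio limits, above 0.8 on the low side, there were 361 pairs, the median shared over joint length was 86.2%, the median edge shift 428 bp and the share of homeobox genes at a pair 11.4%. With the looser limits of 0.5 and 2 there were 693 pairs, and the first 2 of these values were 74.3% and 674 bp. Shared length and edge shift are tied to the ratio limits; all genes at a pair numbered 471 under the stricter limits, and the cause of the lower homeobox share was not tested. With the peaks wider than the median of their list, in place of a stricter call threshold, the median widths were 8.07 kb for control against 8.00 kb for Eed cKO. The median edge shift was then 775 bp and the median distance to the nearest other control peak 98.4 kb, since narrow peaks were taken out. With gene starts alone, genes without a listed strand and genes met only at their far end drop out. This left 428 genes and 14.8% of homeobox genes. A narrower and a wider window at gene ends gave 502 and 584 pairs. Asking that 50% of each peak be covered gave 540, and merging close peaks gave 537. Median promoter CpG observed over expected ranged from 0.718 to 0.738.

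No paired analysis was possible because each genotype had 1 peak list with no values per library, and leaving out a replicate was not possible either. Read depth and the call threshold were unknown, and their part in the peak edges was not tested.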
